A study of Rattus norvegicus with 3 samples.

Results

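Single-cell UMI levels of 7 genes that stepped between injection groups in the injured rat spinal cord were followed through the cell classes of the tissue. The genes were Rab15, Ginm1, Mrpl43, Abcb10, Nol10, Cyp2d3 and Fam111a. These 7 of 25199 annotated genes were selected on measured differences between the same libraries, so the differences below are a description and carry no test. The question put to each gene was whether the step appeared in every cell class that expresses the gene, as a sequence variant or a library difference would give, or in some classes only.

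The animals were wild-type rats aged 6 to 8 weeks with a spinal cord injury, and a 5-mm piece of cord around the injury was dissociated. They received an injection at the injury site of MPG-HD, of G-HD or of PBS, the control; the series title describes a hydrogel depot. Each condition used 5 animals and gave 1 library of the 10x Genomics 3′ kit, with no statement on pooling, strain, sex or the time after injury. With 1 library per condition no difference between animals can be estimated, and all intervals, given at 95%, cover only counting error. Both hydrogel libraries were set against the same PBS library, so these 2 comparisons share it.

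The genes belong to different pathways. Rab15 is a small GTPase that directs recycling endosomes, and Ginm1 is a glycosylated integral membrane protein of little known function. Mrpl43 is a protein of the large mitochondrial ribosome subunit, Abcb10 a transporter of the inner mitochondrial membrane linked to haem synthesis, and Nol10 a nucleolar protein of the small subunit processome, which assembles ribosomes. Cyp2d3 is a cytochrome P450 of the CYP2D family, best known for drug metabolism in liver, and Fam111a is a nuclear protease that binds the replication clamp PCNA and is needed at stalled replication forks. Microglia, which reside in the cord, and macrophages, which enter from blood, are the phagocytes that clear debris after an injury.

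The promoters of 3 of the genes are shown, those of Cyp2d3, Fam111a and Abcb10, because the first was found in few cell classes and the others in many. Sequences are RefSeq's on build GRCr8, 250 bases before to 50 after the annotated start, read 5′ to 3′ along the gene. Cyp2d3 lies on the minus strand at chr7:115802093-115802392, Fam111a on the plus strand at chr1:219065389-219065688 and Abcb10 on the minus strand at chr19:68880154-68880453. Capitals mark matches on either strand to TATAA, known as the core of the TATA box, or to the letters of a CCAAT box.
Cyp2d3: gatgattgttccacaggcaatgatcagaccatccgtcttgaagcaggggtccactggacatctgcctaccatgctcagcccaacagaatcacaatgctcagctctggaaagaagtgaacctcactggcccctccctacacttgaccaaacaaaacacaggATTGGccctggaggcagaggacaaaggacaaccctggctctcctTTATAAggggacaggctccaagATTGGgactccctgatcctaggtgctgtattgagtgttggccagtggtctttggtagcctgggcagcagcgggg
Fam111a: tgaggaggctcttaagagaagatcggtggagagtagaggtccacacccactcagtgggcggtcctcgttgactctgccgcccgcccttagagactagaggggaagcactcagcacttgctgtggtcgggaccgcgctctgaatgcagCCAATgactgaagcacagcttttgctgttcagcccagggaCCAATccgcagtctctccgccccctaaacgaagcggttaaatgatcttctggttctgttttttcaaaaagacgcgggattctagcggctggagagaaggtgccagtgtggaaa
Abcb10: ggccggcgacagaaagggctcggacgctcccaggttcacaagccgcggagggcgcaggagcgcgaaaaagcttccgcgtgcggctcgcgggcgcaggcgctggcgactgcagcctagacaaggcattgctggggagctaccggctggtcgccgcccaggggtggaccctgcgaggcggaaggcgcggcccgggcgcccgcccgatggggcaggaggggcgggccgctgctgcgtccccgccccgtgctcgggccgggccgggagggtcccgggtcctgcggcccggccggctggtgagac

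The Cyp2d3 window held 2 matches of TATAA, which overlap on opposite strands at 1 place, and 2 separate matches of CCAAT, and 2 CpG dinucleotides at 54.0% G and C. The Fam111a window held 2 matches of CCAAT, 15 CpG and 55.3% G and C. Abcb10 held neither motif, 40 CpG and 77.0% G and C, against medians of 7 CpG and 51.7% over 33469 promoters. TATAA was found in 26.2% and CCAAT in 37.5% of all promoters of this length. The E2F letters TTTGGCGC, in 0.493% of promoters, and TTTCCCGC, in 0.974%, were in neither orientation of the 6 windows that the table held (all members but Mrpl43). A match is a description of these letters and not a binding site.

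The libraries held 2339 (MPG-HD), 2619 (G-HD) and 1513 (PBS) barcodes with 23988263, 26289759 and 16081082 UMIs, and 2091, 2347 and 1377 cells passed the filter. Median UMIs per kept cell were 10417, 9257 and 10292, and pairs of libraries shared 5 to 8 barcodes. The heat-shock gene Hspa1b stood at 157 (MPG-HD), 88.8 (G-HD) and 219 CPM (PBS), and its part in the results was not tested. Clustering without the 7 genes gave 15 classes named from markers, written as "like" classes, and 2 unnamed clusters, and 11 of these 17 groups had at least 20 cells in every library. Cluster 10 was led by cell cycle and haemoglobin genes, and cluster 5, with median depths of 2425.5 (MPG-HD), 1262 (G-HD) and 1908 UMIs (PBS), had Mcpt8l3, Anxa3 and Cma1 among its leading genes. In microglia-like cells the 10 microglial markers, 1 of them at 0, summed to 1104 (MPG-HD), 1201 (G-HD) and 1260 CPM (PBS), against 356 CPM in all other cells. The macrophage markers summed to 11113, 14661 and 11151 CPM in macrophage-like cells of the same libraries, against 1917 CPM in all other cells. In macrophage-like cluster 3, however, these markers were on average not above those of other cells, with a mean log2 difference of −0.09.

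Levels are a gene's UMIs in the summed cells, scaled to a common total (CPM). Over all kept cells, all 7 genes passed the minimum of 50 UMIs, and they were compared at a 2-fold difference. In G-HD against PBS, 2 of the 7 were past 2-fold higher and 0 lower, where 2.53% and 3.87% of all genes were. In MPG-HD against PBS, 4 were higher and 2 lower, where 0.606% and 1.65% of all genes were. In MPG-HD against G-HD, 2 were higher and 1 lower, with 3.47% and 3.3% of all genes. Nothing is read from these counts, since the same libraries chose the genes.

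A step was called shared when a gene was past 2-fold in the same direction in every class that measured it, with at least 3 such classes. Measured means at least 20 cells in both libraries and at least 10 UMIs in both sums together. In G-HD against PBS none of the 7 genes was shared in either direction, where 0.112% of all genes were shared higher and 0.0408% lower. MPG-HD against PBS gave 1, Cyp2d3, higher in its 5 measured classes, against a background of 0.0308% higher and 0.072% lower. The interval of the ratio lay above 1 in 3 of these 5 classes, and included 1 in cluster 5 and in oligodendrocyte-like cells. MPG-HD against G-HD also gave 1, Cyp2d3, higher in its 4 measured classes, against a background of 0.0498% higher and 0.0697% lower. That call was lost, with 0 genes, with clusters by number, with named classes only and after thinning to 2000 UMIs, and the call against PBS at 3-fold. The other 6 genes differed between classes in size or direction, as the plot of ratios by class shows.

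**Figure D1:**
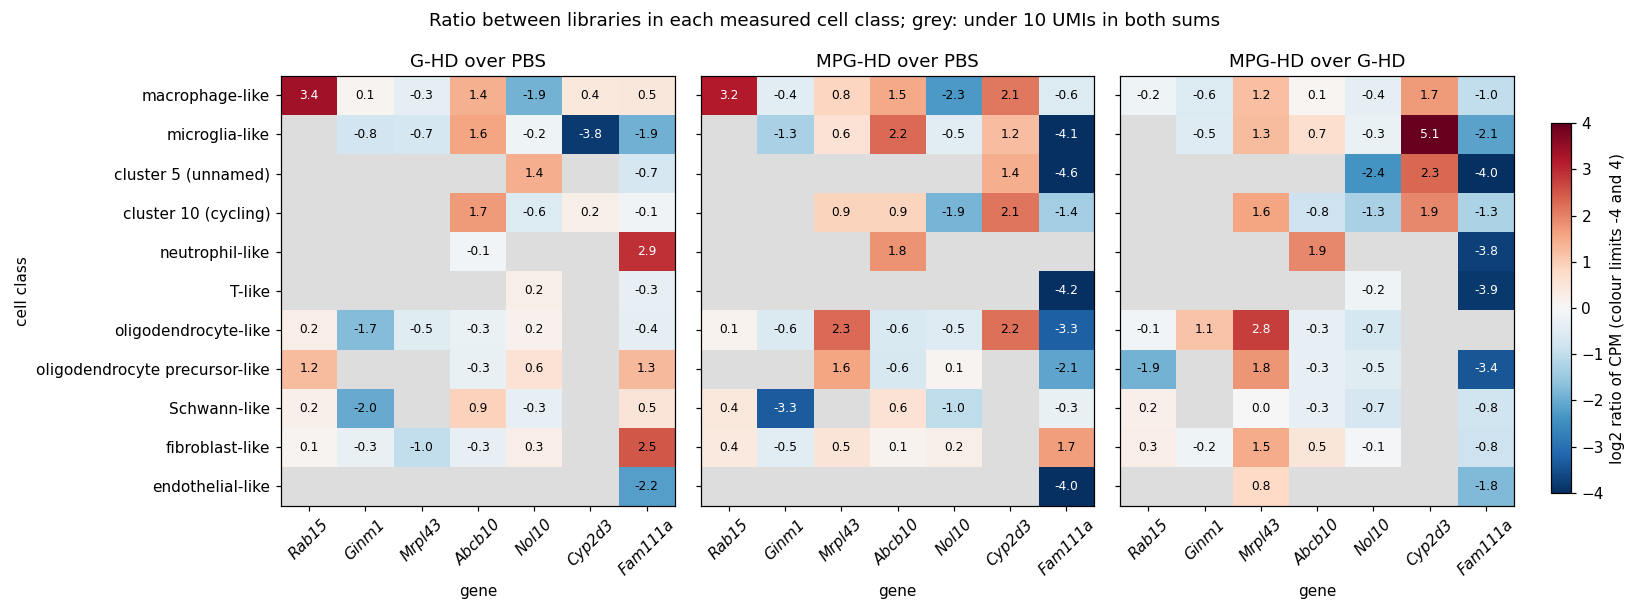
Log2 ratio of CPM between libraries for each gene (columns) in the 11 cell classes with at least 20 cells in every library (rows), 1 panel per comparison. Red is higher and blue lower in the library named first, grey marks classes with under 10 UMIs in both sums together, and a sum of 0 was set to 3 UMIs. The Cyp2d3 column is red throughout in MPG-HD over PBS and over G-HD, and the Fam111a column holds both colours against PBS.

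For scale, 2 features without a gene symbol, looked up after their values were seen, were past 2-fold in every class that measured them. AABR07030791.1 had 1058 UMIs in MPG-HD, 1474 in G-HD and 16 in PBS, and was past 2-fold higher than PBS in 5 classes for MPG-HD and 6 for G-HD. AABR07034739.3 had 37 UMIs in MPG-HD, 205 in G-HD and 6199 in PBS and was past 2-fold lower in 3 classes in both comparisons. It headed the leading genes of the B-like cluster, which had 8 PBS cells and was not compared. Its spread over single cells was not examined. None of the 7 genes showed a step of that size over all cells. The neutrophil genes S100a8 and Camp, both named after their values were seen, were also lower in MPG-HD than in G-HD, in 9 and 7 classes. Neutrophil-like cells were 1.53% (MPG-HD), 5.67% (G-HD) and 1.89% of cells (PBS).

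Cyp2d3, the one gene called shared, had its highest level of the 11 classes in microglia-like cells in MPG-HD and in PBS. In microglia-like cells it stood at 105 CPM in MPG-HD, 3.13 in G-HD and 45 in PBS, from 483, 10 and 132 UMIs. MPG-HD was thus 2.34-fold higher than PBS (1.93 to 2.86) and 33.6-fold higher than G-HD (18.1 to 70.5). G-HD was lower than PBS, with a ratio of 0.0697 (0.0326 to 0.132), so these cells held the order MPG-HD, PBS, G-HD with no overlap of the intervals.

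The share of microglia-like cells with a Cyp2d3 UMI followed the same order. It was 68.1% in MPG-HD, 2.25% in G-HD and 39.3% in PBS, and 23.6%, 0.758% and 7.05% once each cell was thinned to 2000 UMIs. Oligodendrocyte-like cells, which serve as a background at a like depth, had shares of 1.24%, 0% and 0.437% (0 of 172 G-HD cells allows up to 1.74%). Median depths were 12447.5, 11670 and 11414.5 UMIs in microglia-like cells and 12042.5, 11928.5 and 10782 in oligodendrocyte-like cells. The G-HD share in microglia-like cells, 2.25%, was low but above the 1.74% limit of this background. Oligodendrocyte-like cells were themselves counted in the step of MPG-HD over PBS, so they give a low level and not an absence of the gene.

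A finer clustering divided the microglia-like cells into 2 groups, and both had the same order. In fine cluster 1 Cyp2d3 stood at 113 CPM in MPG-HD, 5.15 in G-HD and 45.7 in PBS. In fine cluster 3 it stood at 92.0, 1.64 and 43.1 CPM. The low G-HD value was thus not set by 1 of the 2 groups.

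Macrophage-like cells differed from microglia-like cells in the G-HD library. Cyp2d3 stood there at 42.7 CPM in MPG-HD, 13.2 in G-HD and 9.98 in PBS, and G-HD was not lower than PBS, at a ratio of 1.33 (0.976 to 1.83). MPG-HD was 4.28-fold higher than PBS (3.23 to 5.78) and 3.23-fold higher than G-HD (2.67 to 3.92). The same order held in the 3 macrophage-like clusters, with 21.2, 8.19 and 4.39 CPM in cluster 1, 76.1, 27.1 and 16.5 in cluster 3, and 46.5, 23.6 and 14.1 in cluster 6. In cluster 6 MPG-HD was within 2-fold of G-HD, so with clusters counted singly 0 of the 7 genes were shared in MPG-HD over G-HD. The step of MPG-HD was thus found in both phagocyte classes, and the drop of G-HD below PBS in microglia-like cells only among the 3 classes measured for that comparison; the difference between the classes was not tested.

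Cycling cluster 10 followed the macrophage-like pattern, at 40.3 CPM in MPG-HD, 10.7 in G-HD and 9.08 in PBS. Unnamed cluster 5 stood at 67.5, 0 and 24.7 CPM, with a UMI in 20 of 118 MPG-HD cells and 4 of 65 PBS cells, and its 21 MPG-HD UMIs against 0 in G-HD made MPG-HD at least 4.93-fold higher, with 3 UMIs taken over the library's sum as the floor. The fifth class measured against PBS was oligodendrocyte-like, with 9 UMIs in MPG-HD, 5 of them in 1 cell, and 1 in PBS. Fibroblast-like, Schwann-like, endothelial-like and oligodendrocyte precursor-like sums held 0 to 3 UMIs per library, and T-like and neutrophil-like sums held 0. Most Cyp2d3 UMIs thus lay in microglia-like and macrophage-like cells, and the shared counts also include cluster 5, cluster 10 and, against PBS, oligodendrocyte-like cells.

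Of the other CYP2D genes only Cyp2d4 had enough UMIs to compare, and it was within 2-fold in each comparison. It had 65 UMIs in MPG-HD, 70 in G-HD and 51 in PBS over all cells, which was 2.76, 2.71 and 3.22 CPM. Cyp2d2 had 2, 1 and 2 UMIs and Cyp2d5 1, 0 and 1, too few to show a step or its absence. In the gene order of RefSeq's GRCr8 table, Cyp2d5 and Cyp2d2 stand on either side of Cyp2d3. Serhl2, a serine hydrolase-like gene 4 places after Cyp2d3 among genes in the files, was named after its values were seen. It had 78 UMIs in MPG-HD, 18 in G-HD and 25 in PBS, a ratio of 4.75 for MPG-HD over G-HD (2.82 to 8.43) and of 2.10 for MPG-HD over PBS (1.32 to 3.44). Its sums were 21, 1 and 5 UMIs in microglia-like cells, 14, 4 and 7 in macrophage-like cells, and 24, 6 and 9 in fibroblast-like cells. Serhl2 thus had the library order that Cyp2d3 had in microglia-like cells, and had it in fibroblast-like cells too, where Cyp2d3 had 3, 0 and 1 UMIs.

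**Figure D2:**
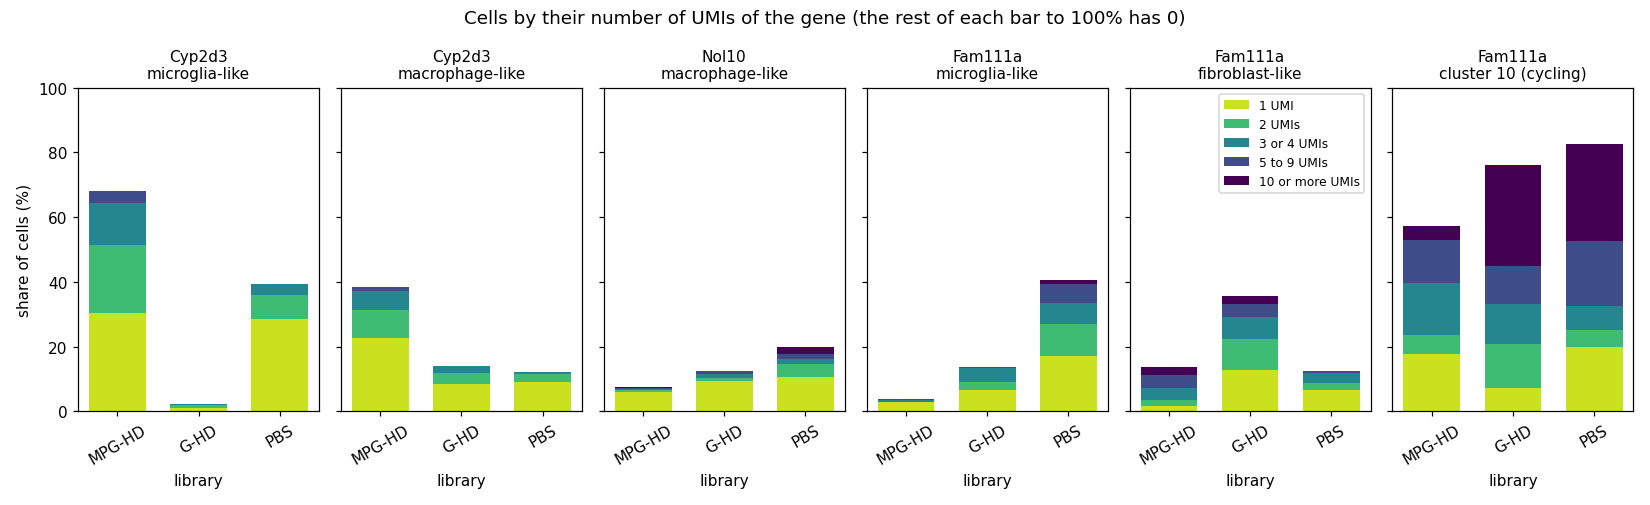
Share of cells (vertical axis, %) with 1, 2, 3 or 4, 5 to 9, and 10 or more UMIs of the gene, in MPG-HD, G-HD and PBS from left to right, 1 panel per gene and class. Bars for Cyp2d3 in microglia-like cells reach 68.1% in MPG-HD, 2.25% in G-HD and 39.3% in PBS, mostly of cells with 1 or 2 UMIs, whereas Fam111a in cycling cluster 10 holds many cells with 10 or more.

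Fam111a was measured in the most classes, and its direction against PBS changed with the class. Microglia-like cells held 5.44 CPM in MPG-HD, 24.1 in G-HD and 91.3 in PBS, so both hydrogel libraries were lower than PBS, with ratios of 0.0596 (0.0379 to 0.0900) and 0.264 (0.202 to 0.342). Fibroblast-like cells held 57.6 CPM in MPG-HD, 101 in G-HD and 18.1 in PBS, and there both were higher, 3.18-fold (2.17 to 4.79) and 5.6-fold (3.91 to 8.25). PBS was thus the highest library in microglia-like cells and the lowest in fibroblast-like cells.

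Unthinned shares of cells with a UMI followed the levels in microglia-like cells but not in fibroblast-like cells of MPG-HD. In microglia-like cells 3.89% (MPG-HD), 13.9% (G-HD) and 40.6% (PBS) had a Fam111a UMI, and after thinning 1.14%, 4.55% and 15.4%. In fibroblast-like cells 13.7%, 35.6% and 12.6% had one (23, 84 and 17 cells), and after thinning 9.52%, 9.79% and 3.1%. MPG-HD and PBS were thus close in the unthinned share, and 103 of the 133 MPG-HD UMIs lay in 11 cells with 5 or more. In oligodendrocyte-like cells, at a like depth, 0.498%, 3.49% and 3.93% had one. The 2 microglia-like groups of the finer clustering both had this order, with 3.90, 19.9 and 77.9 CPM in fine cluster 1 and 7.90, 27.3 and 123 in fine cluster 3.

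The fibroblast-like class held its clusters in different shares in the libraries. Cluster 12 was the largest in MPG-HD (82 of 168 cells) and PBS (55 of 135), and cluster 9 in G-HD (127 of 236). Fam111a in cluster 12 stood at 88.2 CPM in MPG-HD, 127 in G-HD and 12 in PBS, and in cluster 14 at 43.3, 96.3 and 18.4. In cluster 9 it stood at 13.9, 94.9 and 33.2 CPM, where MPG-HD was the lowest. The MPG-HD sum of cluster 12 came from 13 cells, and 82 of its 98 UMIs from 8 cells with 5 or more. Replication fork genes, a list of 40 with PCNA's partners, had 7 of 36 measured members past 2-fold higher and 0 lower in fibroblast-like cells of G-HD over PBS, with a median log2 ratio of 0.34. Of all genes measured there 7.69% were higher and 6.14% lower, with a median of 0.03. In MPG-HD over PBS 0 of 30 were higher and 1 lower, with a median of −0.15 (all genes 3.46% higher, 5.42% lower, median −0.08), while Fam111a was higher. In microglia-like cells the list's medians were 0.09 (G-HD over PBS) and 0.16 (MPG-HD over PBS), while Fam111a was lower in both.

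Cycling cluster 10 had the highest Fam111a level of the 11 classes in each library, 182 CPM in MPG-HD, 437 in G-HD and 480 in PBS. MPG-HD was lower than PBS, with a ratio of 0.380 (0.311 to 0.464), and G-HD was within counting error of it at 0.911 (0.789 to 1.06). The summed replication fork genes stood at 2361, 2852 and 2740 CPM in the same cells, which is a smaller difference for MPG-HD. Cells with 5 or more Fam111a UMIs numbered 12 of 68 in MPG-HD, 41 of 96 in G-HD and 20 of 40 in PBS.

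MPG-HD was below G-HD in all 10 measured classes, by 0.79 to 3.97 on the log2 scale, and past 2-fold in 8 of them. The intervals lay below 1 in 9 of the 10, with endothelial-like cells the exception at 0.292 (0.0529 to 1.08). Schwann-like cells, at 50 CPM in MPG-HD, 86.2 in G-HD and 61.0 in PBS, and fibroblast-like cells were the classes within 2-fold, and macrophage-like cells stood at a ratio of 0.500 (0.426 to 0.584). In the same comparison Mrpl43 was past 2-fold higher in 6 of its 8 measured classes, and neither gene was called shared.

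Macrophage-like cells held 27.4 CPM of Fam111a in MPG-HD, 54.8 in G-HD and 40.1 in PBS, and 11.3%, 40.0% and 31.0% of these cells had a UMI. In MPG-HD 118 of 210 UMIs lay in 8 cells, and 1 cell held 30. Without the 6% of cells with the most UMIs in each library, an alternative chosen after seeing the data, the log2 ratio of MPG-HD over PBS was −1.23 in place of −0.55. T-like cells held 1 UMI in MPG-HD, 29 in G-HD and 19 in PBS, and unnamed cluster 5 held 1, 11 and 13. Neutrophil-like cells held 1, 109 and 2 UMIs, of which 98 of the 109 lay in 12 G-HD cells. All 109 were in cluster 18, which held 60 G-HD but 2 MPG-HD and 5 PBS cells, and cluster 15 held 1, 0 and 0 UMIs. Endothelial-like cells held 3, 12 and 60 UMIs, of which 35 of the 60 lay in 1 PBS cell, so the ratio of 0.216 for G-HD over PBS there (0.106 to 0.406) rests in large part on that cell.

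**Figure D3:**
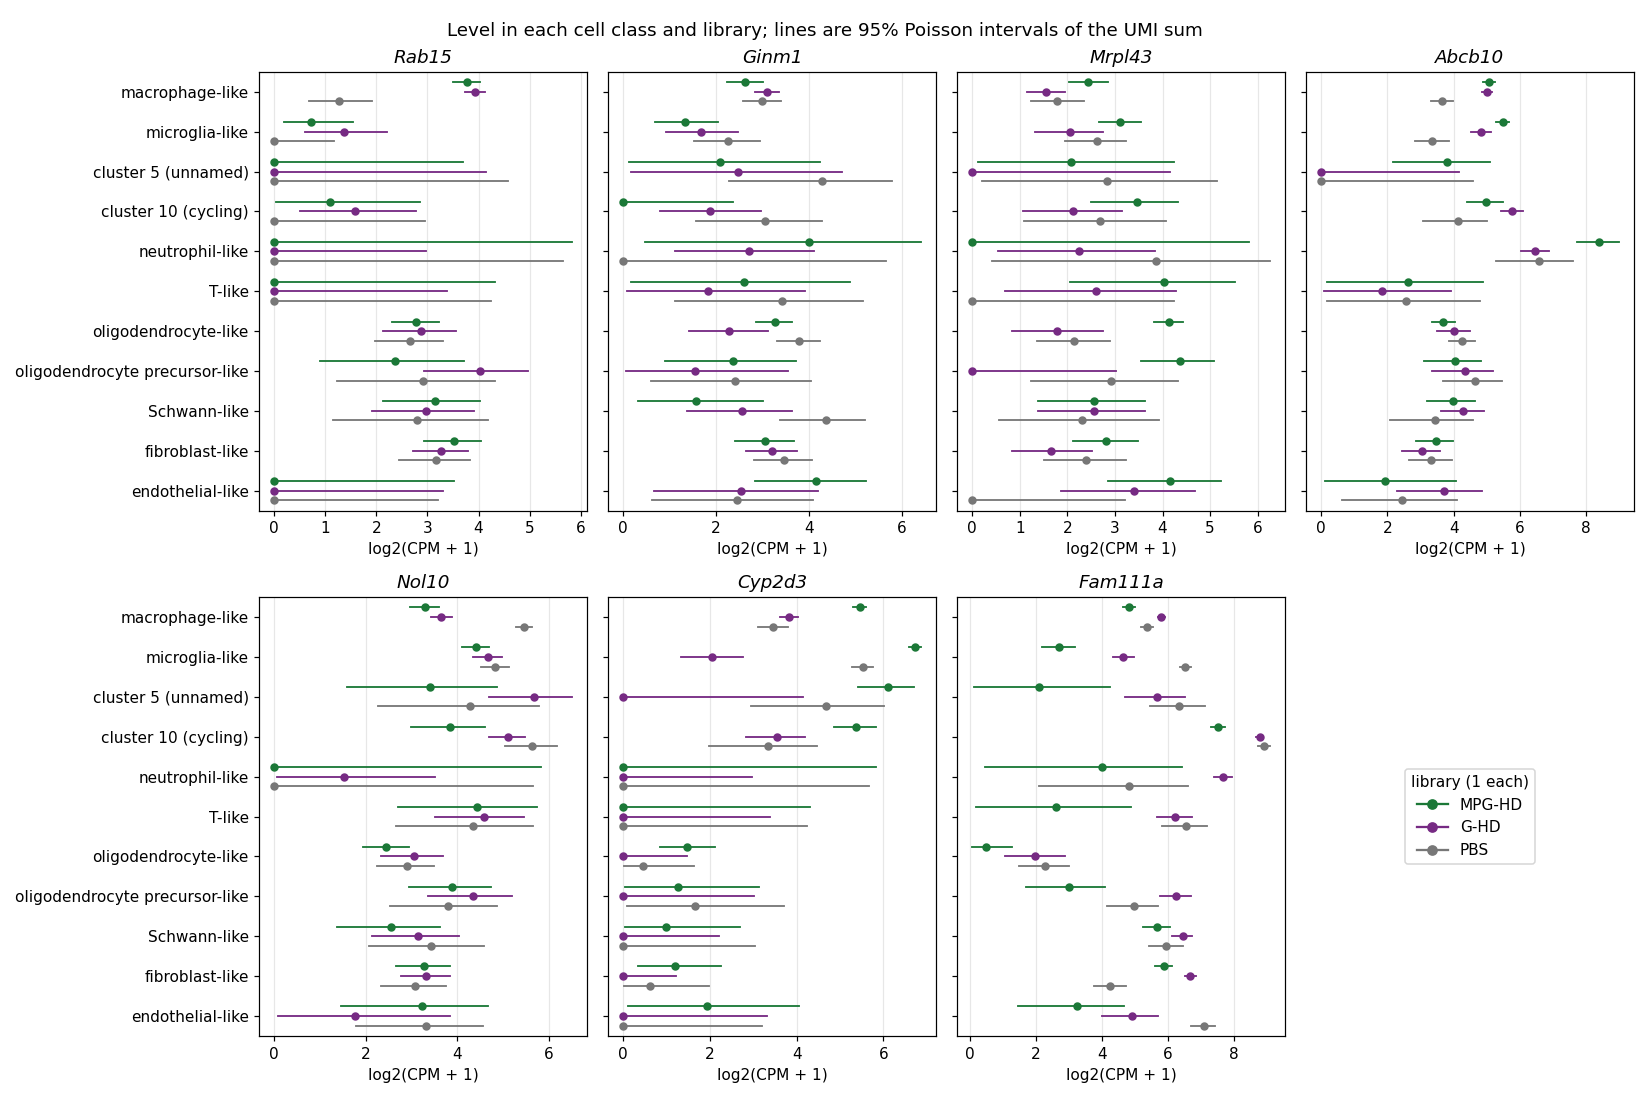
Level of each gene as log2(CPM + 1) (horizontal axes) in 11 cell classes (rows), with MPG-HD above G-HD above PBS in each row. Points are the sums of 1 library and lines their 95% Poisson intervals. Rab15 separates the libraries in macrophage-like cells, Cyp2d3 in microglia-like and macrophage-like cells and in clusters 5 and 10, and Fam111a in most classes and in different orders.

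Rab15 was higher in both hydrogel libraries over all cells. By class, the interval of the ratio to PBS lay above 1 in macrophage-like cells only. These held 12.6 CPM in MPG-HD, 14.3 in G-HD and 1.40 in PBS, from 97, 178 and 8 UMIs. The ratio to PBS was 9.03 for MPG-HD (4.4 to 21.5) and 10.2 for G-HD (5.06 to 24.0), and MPG-HD stood at 0.885 of G-HD (0.684 to 1.14). The share of cells with a UMI was 11.3%, 12.5% and 1.92%, and 2.70%, 1.99% and 0% after thinning, at median depths of 14579.5, 16292 and 14780 UMIs. Microglia-like cells, as a background, had shares of 0.556%, 1.5% and 0% (0 of 244 PBS cells allows up to 1.23%). The PBS share in macrophage-like cells, 1.92%, was low but above that limit.

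In 3 other classes no Rab15 ratio to PBS was past 2-fold, but few UMIs lay behind them. Oligodendrocyte-like cells held 5.85 CPM in MPG-HD, 6.32 in G-HD and 5.31 in PBS, and fibroblast-like cells 10.4, 8.65 and 7.98. Schwann-like cells held 7.84, 6.85 and 5.91 CPM. The sums were 30, 13 and 14 UMIs in oligodendrocyte-like, 24, 24 and 15 in fibroblast-like, and 8, 7 and 3 in Schwann-like cells. All 6 ratios to PBS in these 3 classes lay between 1.08 and 1.33, with intervals that included 1. The upper limits ran from 2.22 to 7.76, so a 2-fold step was not excluded in any of these classes. Oligodendrocyte precursor-like sums held 3, 8 and 3 UMIs, too few to order. T-like, neutrophil-like, endothelial-like and cluster 5 sums held 0 UMIs in every library.

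Within the macrophage-like class, Rab15 followed the cluster. Cluster 1 held 14.1 CPM in MPG-HD, 14.9 in G-HD and 2.36 in PBS, and cluster 3, rich in C1q genes, 15.3, 19.4 and 0.458. Cluster 6 held 0 UMIs in the 104 MPG-HD, 130 G-HD and 63 PBS cells. The PBS library had cells in all 3 clusters, 156, 146 and 63, so the low PBS sum was found at the level of single clusters. Of 52 other Rab GTPase genes with at least 10 UMIs over all cells, 1 was past 2-fold higher and 4 lower in G-HD over PBS. The higher one, Rab19, had 11 UMIs in G-HD and 1 in PBS. The shares of all genes were 2.53% and 3.87%, and the Rab genes had a median log2 ratio of −0.07. In macrophage-like cells 0 of 41 were higher and 3 lower in G-HD over PBS, and 0 higher and 1 lower in MPG-HD over PBS. These counts were near those of all genes in these cells, 3.91% higher and 4.3% lower in G-HD over PBS, and 2.3% and 3.93% in MPG-HD over PBS.

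**Figure D4:**
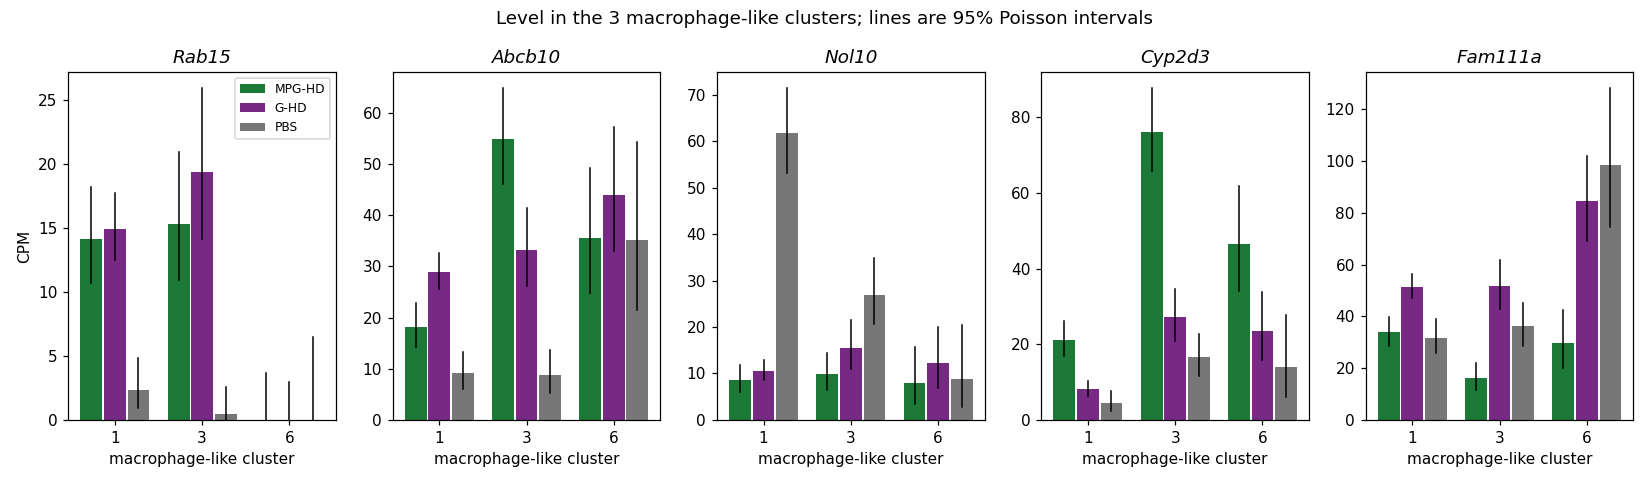
CPM (vertical axes, from 0) of 5 genes in macrophage-like clusters 1, 3 and 6, with MPG-HD, G-HD and PBS from left to right in each cluster. Bars are the sums of 1 library and lines 95% Poisson intervals. Rab15 and Abcb10 are low in PBS in clusters 1 and 3, Nol10 is high in PBS in cluster 1, and Cyp2d3 is highest in MPG-HD in all 3.

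Abcb10 was higher in both hydrogel libraries in the phagocyte classes and not in oligodendrocyte-like or fibroblast-like cells. Schwann-like cells were also above PBS in both hydrogel libraries, but within 2-fold and within counting error. Macrophage-like cells held 32.7 CPM in MPG-HD, 31.2 in G-HD and 11.6 in PBS, with ratios to PBS of 2.83 (2.15 to 3.77) and 2.70 (2.08 to 3.56). Microglia-like cells held 43.8, 27.2 and 9.19 CPM, with ratios to PBS of 4.76 (3.18 to 7.40) and 2.96 (1.91 to 4.75). PBS was the lowest library in both classes. MPG-HD stood above G-HD in microglia-like cells, at 1.61 (1.24 to 2.09), and level with it in macrophage-like cells, at 1.05 (0.891 to 1.23).

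Oligodendrocyte-like cells held 11.9 CPM of Abcb10 in MPG-HD, 15.1 in G-HD and 18.2 in PBS, the reverse order. Their ratio for MPG-HD over PBS was 0.653 (0.440 to 0.974). Fibroblast-like cells held 9.95, 7.21 and 9.04 CPM and oligodendrocyte precursor-like cells 15.3, 19.3 and 23.8, with intervals of the ratios that included 1. Schwann-like cells had log2 ratios to PBS of 0.58 for MPG-HD and 0.92 for G-HD, with intervals that included 1. Monocyte-like cells were past 2-fold higher in G-HD over PBS, at a log2 ratio of 1.23, and that interval included 1 as well. Neutrophil-like cells had the highest level of the 11 classes in every library, 332 CPM in MPG-HD, 87.3 in G-HD and 94.4 in PBS, from 22, 47 and 7 UMIs. There MPG-HD stood at 3.52 of PBS (1.45 to 9.75), where 23.1% of all genes measured were past 2-fold higher, and G-HD at 0.925 of PBS (0.415 to 2.43). The 7 PBS UMIs came from 2 cells, and the G-HD over PBS log2 ratio ran from −1.18 to 1.54 over the alternatives. The class held different clusters in the libraries, with cluster 18 making up 2 of 32 MPG-HD, 60 of 133 G-HD and 5 of 26 PBS cells. In its other cluster, 15, Abcb10 stood at 389, 351 and 197 CPM. Cycling cluster 10, led in part by haemoglobin genes, held 30.2, 53.5 and 16.4 CPM, and G-HD was 3.27-fold higher than PBS there (1.64 to 7.41). In that cluster 6 of 16 measured genes of the ABCB and haem list were past 2-fold higher in G-HD over PBS, with a median log2 ratio of 0.49. Of all genes measured there 8.89% were higher and 5.54% lower, with a median of −0.01.

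The step of Abcb10 was uneven within macrophage-like cells. Cluster 1 held 18.2 CPM in MPG-HD, 28.9 in G-HD and 9.12 in PBS, and cluster 3 held 54.9, 33.2 and 8.70. Cluster 6, where Rab15 was absent, held 35.6, 43.9 and 35.2 CPM, so no step was seen there. In microglia-like fine cluster 3 it stood at 59.8, 31.6 and 2.27 CPM, and in fine cluster 1 at 33.7, 21.3 and 12.2. In microglia-like cells 17.5%, 13.9% and 7.38% had a UMI, and 6.27%, 4.92% and 2.49% after thinning, and 108 of the 201 MPG-HD UMIs lay in 15 cells with 5 or more. Of 19 other ABCB and haem synthesis genes with at least 10 UMIs over all cells, 0 were past 2-fold in MPG-HD over PBS. In G-HD over PBS 1 was higher, and the medians were 0.04 and 0.10. Among all genes 0.606% were higher and 1.65% lower in MPG-HD over PBS, and 2.53% and 3.87% in G-HD over PBS.

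Nol10 was highest in PBS over all cells, with the clearest difference in macrophage-like cells. These held 8.86 CPM in MPG-HD, 11.6 in G-HD and 43.2 in PBS, from 68, 145 and 247 UMIs, with ratios to PBS of 0.205 (0.154 to 0.269) and 0.269 (0.218 to 0.332). The share of cells with a UMI was 7.46%, 12.4% and 20%, and 1.45%, 1.85% and 6.42% after thinning. In PBS 158 of the 247 UMIs came from 14 cells with 5 or more, and 1 cell held 25. Few cells thus carried most of the PBS sum, although more cells had a UMI as well.

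Cluster 1 held 8.51 CPM of Nol10 in MPG-HD, 10.5 in G-HD and 61.8 in PBS, cluster 3 held 9.81, 15.5 and 27, and cluster 6 held 7.91, 12.2 and 8.80. The step was therefore largest in cluster 1 and not seen in cluster 6. Microglia-like cells held 20.3, 24.4 and 27.6 CPM, of which 25 of the 81 PBS UMIs lay in 1 cell, and their shares of cells with a UMI were 20.6%, 21.0% and 15.6%. Oligodendrocyte-like cells held 4.48, 7.29 and 6.45 CPM, and fibroblast-like cells 8.66, 9.01 and 7.45. T-like cells held 20.5, 22.9 and 19.4 CPM from 4, 9 and 4 UMIs. Cluster 5 went another way, with 3, 11 and 3 UMIs and log2 ratios of 1.44 for G-HD over PBS and −2.38 for MPG-HD over G-HD. Schwann-like cells, with 5, 8 and 5 UMIs, were at −1.01 for MPG-HD over PBS, and that ratio's interval included 1. Cycling cluster 10 held 13.4, 33.4 and 49.1 CPM, and 20 of its 27 PBS UMIs lay in 2 cells. The log2 ratio of MPG-HD over PBS in that cluster was −1.87, and −0.02 without the 6% of cells with the most UMIs in each library. Of 45 other small subunit processome genes, 0 were past 2-fold over all cells in any of the 3 comparisons, with medians from −0.08 to 0.08. Among all genes 0.606% to 3.87% were, by comparison and direction, so nothing is read from this count.

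Mrpl43 was higher in MPG-HD, and most strongly in the oligodendrocyte lineage. Oligodendrocyte-like cells held 16.6 CPM in MPG-HD, 2.43 in G-HD and 3.41 in PBS, from 85, 5 and 9 UMIs. MPG-HD was 4.85-fold higher than PBS (2.44 to 11) and 6.82-fold higher than G-HD (2.81 to 21.5). The share of cells with a UMI was 16.2%, 2.91% and 3.49%, and 2.66%, 1.45% and 1.72% after thinning, a smaller difference at that depth. Oligodendrocyte precursor-like sums held 14, 0 and 3 UMIs, which made MPG-HD at least 3.37-fold higher than G-HD, with 3 UMIs as the floor of the sum.

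In phagocytes the Mrpl43 step was smaller. Macrophage-like cells held 4.43 CPM in MPG-HD, 1.93 in G-HD and 2.45 in PBS, and microglia-like cells 7.62, 3.13 and 5.11. The ratios to PBS were 1.81 (0.945 to 3.65) and 1.49 (0.794 to 2.94), and those to G-HD 2.30 (1.33 to 4.06) and 2.43 (1.18 to 5.51). Schwann-like cells held 5, 5 and 2 UMIs, with a ratio of 1.00 for MPG-HD over G-HD (0.230 to 4.35). MPG-HD over G-HD was past 2-fold in 6 of 8 measured classes and MPG-HD over PBS in 2 of 6, and no measured class was past 2-fold lower. Of 42 other mitochondrial large subunit genes, 0 were past 2-fold over all cells in each of the 3 comparisons, with medians of 0.01 to 0.08. Among all genes 0.606% to 3.87% were, by comparison and direction, so nothing is read from this count. Twnk, the mitochondrial helicase gene that overlaps Mrpl43 in the RefSeq table, held 22.8, 17.7 and 20.6 CPM over all cells, and strand-specific counting is not stated in the sources used here.

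Ginm1 was the only one of the 7 within 2-fold over all cells in every comparison, at 5.26 CPM in MPG-HD, 5.80 in G-HD and 8.01 in PBS. No cell held more than 3 of its UMIs. Oligodendrocyte-like cells held 8.58, 3.89 and 12.9 CPM from 44, 8 and 34 UMIs, and the G-HD ratio to PBS was 0.301 (0.121 to 0.664). Schwann-like sums held 2, 5 and 10 UMIs, with ratios to PBS of 0.0995 for MPG-HD (0.0106 to 0.467) and 0.249 for G-HD (0.0667 to 0.798). Macrophage-like cells held 5.21, 7.62 and 7 CPM and fibroblast-like cells 7.36, 8.29 and 10.1, with intervals of the ratios to PBS that included 1. Microglia-like cells held 7, 7 and 11 UMIs, and the MPG-HD ratio to PBS of 0.407 there had an interval of 0.134 to 1.15. Against PBS, the ratios with intervals below 1 thus lay in the myelinating classes, with few UMIs behind them. MPG-HD over G-HD in macrophage-like cells was 0.684 (0.46 to 1), from 40 and 95 UMIs. Oligodendrocyte-like cells went the other way in this comparison, at a log2 ratio of 1.14 with an interval above 1. They were the only 1 of 4 measured classes past 2-fold.

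In sums over all kept cells, most measured genes next to the members in the RefSeq order stayed within 2-fold. Steps within single classes were not compared for them, except for Serhl2 and Gpx2. Of 70 neighbours, 5 on each side among genes in the files, 49 had enough UMIs in each comparison with PBS and 51 in MPG-HD over G-HD. Past 2-fold were 0 in G-HD over PBS, 1 in MPG-HD over PBS (Serhl2) and 2 in MPG-HD over G-HD (Serhl2 and Gpx2). Among all genes 2.53% were higher and 3.87% lower in G-HD over PBS, and 0.606% and 1.65% in MPG-HD over PBS. In MPG-HD over G-HD the shares were 3.47% and 3.3%, so nothing is read from the neighbour counts. Gpx2, a glutathione peroxidase next to Rab15, was at 13.9 CPM in MPG-HD, 5.92 in G-HD and 8.39 in PBS over all cells, but at 50.7, 50.5 and 34.9 in oligodendrocyte-like cells, which were 19.2%, 7.33% and 16.6% of cells. The nearest measured neighbours of Abcb10, Nup133 and Urb2, held 6.91, 7.20 and 6.87 CPM and 2.04, 1.62 and 2.14 CPM. Those of Nol10, Pdia6 and Odc1, stood between 0.796 and 1.11 in every ratio, those of Ginm1, Katna1 and Ppil4, between 0.764 and 1.2, and Fntb, on the other side of Rab15, between 0.671 and 1.47. Atp6v1c2, which overlaps Nol10, held 5, 8 and 6 UMIs. Next to Mrpl43, Lzts2 lay between 0.746 and 1.47 and Sema4g had 15, 15 and 16 UMIs, and next to Fam111a, Dtx4 lay between 0.636 and 1.85 and Glyatl1 had 0 UMIs.

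The genes most like each member were ranked by Pearson's r over the same 33 class sums (11 classes in 3 libraries, each class centred on its mean log2 level with 5 CPM added). The sums share libraries and depth, so r is a description. For Cyp2d3 they were Kmo (0.75), Hnrnph1 (0.67) and Slc4a5 (0.65), and for Fam111a Tle4 (0.80), Abce1 (0.75) and Shprh (0.73). For Rab15 they were Tnfaip8 (0.58), Cyp26a1 (0.58) and Pstpip1 (0.54), and for Abcb10 the ferritin gene Ftl1 (0.74), Mus81 (0.73) and Rab27a (0.71). Nol10 was closest to Fam149a (0.72), Qtrt1 (0.70) and Vav1 (0.66), Mrpl43 to Nup205 (0.70), and Ginm1 to Dipk2a (0.81), Naa16 (0.75) and Trim23 (0.75). Among the 7 genes themselves the highest value was 0.41 (Nol10 and Fam111a) and the lowest −0.64 (Nol10 and Cyp2d3), so no pair shared 1 pattern across classes.

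The 5 Y-linked genes of the list that were in the files had 0 UMIs in every library, so no statement on the sex of the animals can be drawn from them. Of 9 inducible stress genes measured over all cells, 0 were past 2-fold in either comparison of MPG-HD, and 1, Hspa1b, was past 2-fold lower in G-HD over PBS. Among all genes 0.606% to 3.87% were past 2-fold, by comparison and direction. No gene of any of the 8 lists was past 2-fold in every measured class in any comparison, where 0.0308% to 0.112% of all genes were.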

How the data were processed

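The deposited values are raw UMI counts for each gene in each barcode, whole numbers in 3 matrices. Cell Ranger 3.0.2 is named in the submitters' processing notes, beside GRCm38 and mm10, which are mouse builds. Version 3.1.0 stands in the header of the matrices. Gene identifiers are those of rat in Ensembl, and the rat build is not given in the sources used here. Members and gene lists were chosen with earlier results of these data known.

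Barcodes under 200 genes or over 20% mitochondrial UMIs were dropped. Counts scaled to 10000 per cell gave 2000 variable genes (the 7 members left out), 30 components, a graph of 20 neighbours (scikit-learn 1.9.0) and Leiden clusters at resolution 0.8 (leidenalg 0.10.2). A cluster was named from marker sets if at least 3 markers were found in at least 20% of its cells and no other class led its 10 leading genes. No doublet caller was run; leaving out the 6% of cells with the most UMIs was an alternative. Levels are summed UMIs scaled to a common total (CPM) with exact Poisson intervals, ratios have exact conditional intervals, and a sum of 0 was set to 3 UMIs for a bound. With 1 library per condition there was no test. Names in the text are the 7 members, CYP2D genes, the nearest neighbour on each side and the 3 most alike genes (for Mrpl43 only the first is reported here); others are said to be named after their values were seen, or are list examples. Shares of cells were thinned to 2000 UMIs, which left out 209 (MPG-HD), 319 (G-HD) and 150 cells (PBS).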

Additional observations from a re-analysis of the deposited data

Results flagged for a closer look

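Fam111a moved in opposite directions in different cell classes under the same comparison, which is why it is listed here. The difference between classes was not tested, since each class has 1 library per condition. In G-HD over PBS its log2 ratio was 2.49 in fibroblast-like, 2.91 in neutrophil-like, 1.31 in oligodendrocyte precursor-like and 2.73 in monocyte-like cells, but −1.92 in microglia-like and −2.21 in endothelial-like cells. In MPG-HD over PBS it was 1.67 in fibroblast-like cells, but −4.07 in microglia-like, −3.28 in oligodendrocyte-like, −4.17 in T-like, −2.12 in oligodendrocyte precursor-like and −3.99 in endothelial-like cells, −4.64 in unnamed cluster 5 and −1.39 in cycling cluster 10. In fibroblast-like cells the unthinned share of cells with a UMI was 13.7% in MPG-HD and 12.6% in PBS, but after thinning it was higher in MPG-HD. Of the 98 MPG-HD UMIs of cluster 12, 82 lay in 8 cells, and in cluster 9 MPG-HD was below PBS, at 13.9 and 33.2 CPM. The neutrophil-like class held 60 cells of cluster 18 among 133 in G-HD and 5 among 26 in PBS, and all 109 G-HD UMIs lay in that cluster. The neutrophil-like, monocyte-like and endothelial-like values rest on few cells with many UMIs: the PBS sums held 2 UMIs in neutrophil-like and 2 in monocyte-like cells, and 1 PBS endothelial-like cell held 35 of 60.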

How the results depend on the processing

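The 161 ratios examined were each of 1 gene in 1 comparison, in a class or over all kept cells. Of their 1501 recomputed values, 1420 moved by less than their counting interval, 81 moved further and 0 reversed a called direction. The number of genes past 2-fold in every measured class of MPG-HD over G-HD was 1 (Cyp2d3). It was 0 with clusters by number, 0 with named classes only (added after seeing the data), 0 with cells thinned to 2000 UMIs, 2 without the cell with the most UMIs (Mrpl43 and Cyp2d3), 2 at 20 UMIs (the same genes) and 2 at 1.5-fold (Cyp2d3 and Fam111a). For MPG-HD over PBS it was 0 at 3-fold. Genes past the fold over all kept cells were, for G-HD over PBS, 4 at 1.5-fold, 1 at 3-fold and 1 after thinning, and for MPG-HD over PBS 0 at 3-fold and 3 after thinning; thinning leaves fewer UMIs and so fewer measured genes. For Nol10 over all cells, G-HD over PBS was −0.91 on the log2 scale, and −0.03 with the measured classes weighted alike. Depth limits Ginm1, Mrpl43 and Rab15 outside their main classes. No paired analysis was possible because each condition has 1 library.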

Other observations

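Classes with under 20 cells in a library entered no comparison there. In B-like cells Fam111a had 0 UMIs in 14 MPG-HD cells, 25 in 100 G-HD cells and 0 in 8 PBS cells, and in ependymal-like cells 0, 17 and 0 in 7, 11 and 1 cells. Abcb10 had 15 UMIs in 13 monocyte-like cells of MPG-HD, 11 in 26 of G-HD and 2 in 20 of PBS.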
